A study of Mus musculus with 20 samples.

Results

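The libraries described here are the 6 RNA-seq libraries of mouse heart at E11.5 (embryonic day) in which Tnnt2::Cre deleted Kmt2d, out of 20 libraries in the series. They were chosen by their titles, 3 named Tnnt2::Cre mutant and 3 named Tnnt2::Cre WT, and all 6 entered every comparison below unless one is said to be left out. The study asked what the histone methyltransferase KMT2D does in heart development by deleting a floxed allele in different cell populations of the heart and its progenitors. Tnnt2::Cre is driven by the cardiac troponin T promoter and is active in the myocardium of the embryo, so the deletion is in cardiomyocytes, whereas RNA was taken from whole hearts with all their other cells. Mutants were Tnnt2::Cre; Kmt2d fl/fl; mTmG/+ embryos. Controls were Tnnt2::Cre; Kmt2d fl/+; mTmG/+ embryos, so that the groups shared the Cre driver, the mTmG membrane reporter and at least 1 floxed Kmt2d allele, and the controls carried 1 Kmt2d allele that can be deleted. Both groups were of strain C57BL/6. The labels do not say whether a library held 1 heart or several, nor whether the hearts came from different litters, and p-values measure the spread between these libraries. Total counts were 35379996 to 44165532 in mutants and 36809972 to 45341870 in controls.

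KMT2D is a large nuclear enzyme that adds methyl groups to lysine 4 of histone H3, mainly at enhancers and promoters. It works in a complex with KDM6A, PAXIP1, NCOA6 and the core subunits WDR5, RBBP5, ASH2L and DPY30, and its loss in humans causes Kabuki syndrome, in which heart defects are common. At E11.5 the ventricular wall of the mouse heart is a thin trabeculated muscle, lined by endocardium and covered by epicardium, and its chambers are full of nucleated primitive red blood cells. The number of red cells that stay in a dissected heart can differ from one embryo to the next, which was not measured here. Their hemoglobin RNA is counted with the RNA of the heart.

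Levels are CPM (counts scaled to library total) after trimmed-mean scaling, and a log2 fold change is mutant minus control with its standard error (± SE, 3 mutants against 3 controls). A gene is called where its adjusted p in edgeR's quasi-likelihood test was under 0.05. Of 17045 genes tested, 50 were called, which is 0.293% of them. Of these, 13 were higher in mutants, 0.0763% of the genes tested, and 37 were lower, 0.217%.

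Kmt2d itself, which the table lists under its older name Mll2, was measured at 107, 113 and 116 CPM in mutants 1, 2 and 3 and 159, 149.5 and 119 CPM in controls 1, 2 and 3. Every mutant was below every control, by a small margin (mutant 3 against control 3), and the difference did not pass the test (log2 fold change -0.35 ± 0.12, adjusted p = 0.327). The count covers all exons of the gene, also those outside the floxed part, and whole hearts hold cells in which the driver is not active, so the deleted transcript cannot be told apart from the intact one here. Of the 14 members of KMT2 complexes measured, 0 were called. At an unadjusted p under 0.05, 2 were lower, Kmt2d and Setd1b, where 5.72% of all genes were. The median log2 fold change of the 14 was -0.10, beside a median near 0 over all genes tested. Setd1b, a related H3K4 methyltransferase, was at 11, 6.99 and 9.04 CPM in mutants and 13.5, 12.8 and 11.9 CPM in controls (log2 fold change -0.50 ± 0.17, adjusted p = 0.327). Its groups did not overlap either. Kmt2c (Mll3 in the table), the closest relative of Kmt2d, had a log2 fold change of -0.24 ± 0.13, adjusted p = 0.497, and its level in control 3 was inside the range of the mutants.

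The libraries carried the markers of heart tissue. All 7 cardiomyocyte markers examined, from Tnnt2 to Nkx2-5, had at least 1 FPKM (fragments per kilobase of gene, scaled to the library total) in every library, and so did all 5 endocardial and endothelial, all 4 epicardial and all 4 valve mesenchyme markers. Their summed levels were 13699 to 16582 FPKM in mutants and 10715 to 14315 in controls for cardiomyocyte markers. Liver and foregut markers summed to at most 0.903 FPKM in 5 libraries and 6.27 in mutant 2, in which Afp, an endoderm and liver product, stood at 8.67 CPM. Of the 50 markers of 10 cell types examined, 0 were called by edgeR and 2 by DESeq2, beside 0.293% and 1.39% of all genes. Of the 50, 10 had an unadjusted p under 0.05, where 6.21% of all genes were higher and 5.72% lower. In whole hearts, fewer cells of a type and less RNA per cell cannot be told apart.

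Red cell RNA divided the mutants. The hemoglobin genes took 11.8, 2.07 and 4.37% of all counts in mutants 1, 2 and 3 and 11.7, 14.6 and 9.05% in controls 1, 2 and 3. Mutant 1 was therefore within the range of the controls, and mutants 2 and 3 were below all of them. The study reported a decrease of erythropoietic markers with this deletion, from a gene set enrichment analysis. What lowered the share in mutants 2 and 3 was not tested. The mean share was 6.08% ± 5.08 (SD, n = 3) in mutants and 11.8% ± 2.80 (SD, n = 3) in controls, and a two-sided exact permutation test gave p = 0.3, where the smallest p that 3 against 3 allows is 0.1. The embryonic beta-like globin Hbb-y was counted at 54816, 7867 and 17571 CPM in mutants 1, 2 and 3 and 51925, 73522 and 46075 CPM in controls 1, 2 and 3. The embryonic alpha-like globin Hba-x, at 49235, 7385 and 16596 CPM in mutants and 48204, 60008 and 37563 CPM in controls, had the same order of libraries among the mutants. None of the 7 hemoglobin genes tested was called, with log2 fold changes from -1.26 to -0.64 and SEs of 0.498 to 0.605, and 0 had an unadjusted p under 0.05.

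Other red cell genes were arranged in the same way. Of 36 erythroid genes tested, 0 were called, and 1 was higher and 1 lower at an unadjusted p under 0.05. Over all genes 6.21% were higher and 5.72% lower. Of the 36, 35 had a negative log2 fold change, with a median of -0.92. Over all genes, 50.7% had a positive one. Slc4a1, the anion exchanger of the red cell membrane, was at 1557, 206 and 484 CPM in mutants 1, 2 and 3 and 1508, 2315 and 1240.2 CPM in controls 1, 2 and 3. Car2, a carbonic anhydrase, was at 616, 87.4 and 194 CPM in mutants and 615, 893 and 530.0 CPM in controls. The exception was Car1, at no more than 1.08 CPM in any library, with a log2 fold change of 1.54 ± 0.59, adjusted p = 0.365. Taken as the median distance of a library from the control mean, the erythroid list was at 0.037, -2.37 and -1.38 on the log2 scale in mutants 1, 2 and 3, and at -0.014, 0.42 and -0.37 in controls 1, 2 and 3. Megakaryocyte and platelet genes had another order. Pf4, platelet factor 4, was at 417, 82.5 and 88.4 CPM in mutants 1, 2 and 3 against 108, 59.3 and 147 CPM in controls, so that mutant 1 was above all other libraries, and of 16 such genes 0 were called and 0 had an unadjusted p under 0.05.

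**Figure D1:**
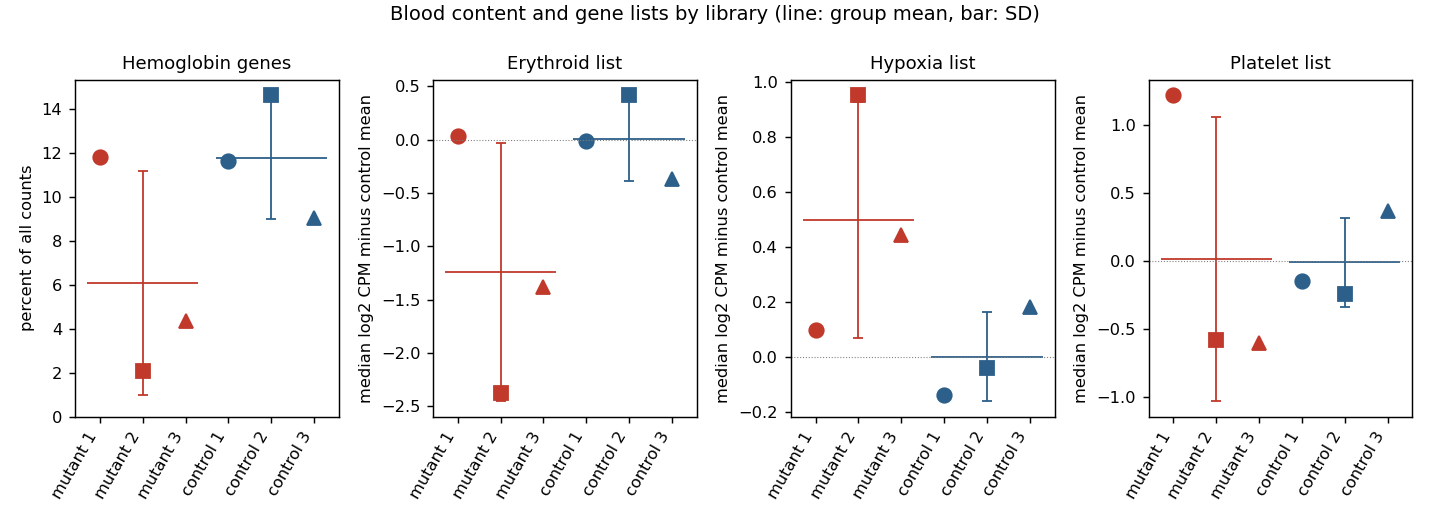
Share of counts from hemoglobin genes (percent, left) and the median log2 CPM minus the control mean of the erythroid, hypoxia and platelet lists (other panels) in each of the 6 libraries, with group means as lines and SDs as bars. Mutant 1 sits with the controls for hemoglobin and erythroid genes, mutants 2 and 3 lie lower, the hypoxia list is highest in mutants 2 and 3, and the platelet list is highest in mutant 1.

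Of the 37 genes that fell, those known from striated muscle are given first. Srpk3, a muscle-specific protein kinase and a known target of MEF2 (chrX:71019744-71024264, plus strand, in mm9), was at 6.16, 5.45 and 5.71 CPM in mutants 1, 2 and 3 and 23.5, 19.5 and 20.7 CPM in controls 1, 2 and 3. The groups were far apart and mutants varied by less than 1 CPM (log2 fold change -1.88 ± 0.13, adjusted p = 0.00211). Sgca, alpha-sarcoglycan of the dystrophin complex at the muscle cell membrane (chr11:94824105-94837641, minus strand), was at 1.24, 1.11 and 1.73 CPM in mutants 1, 2 and 3 and 10.2, 8.70 and 8.89 CPM in controls 1, 2 and 3. It fell in all 3 mutants alike (log2 fold change -2.77 ± 0.21, adjusted p = 0.00211), which is 6.83-fold. Tnnt1, slow skeletal troponin T (chr7:4456172-4467577, minus strand), was at 17.5, 22.3 and 22.9 CPM in mutants and 42, 40.8 and 48.9 CPM in controls (log2 fold change -1.07 ± 0.13, adjusted p = 0.0179). Myoz1, a Z-disc protein that binds calcineurin, was at 1.12, 1.83 and 1.33 CPM and 6.72, 4.68 and 5.10 CPM (log2 fold change -1.95 ± 0.25, adjusted p = 0.0186). Mybpc1, slow myosin-binding protein C, was at 1.36, 1.81 and 2.29 CPM and 5.94, 5.21 and 5.68 CPM (log2 fold change -1.63 ± 0.22, adjusted p = 0.0264). Ckm, muscle creatine kinase, was low in all libraries, at no more than 0.143 CPM in mutants and from 0.748 to 1.01 CPM in controls (log2 fold change -3.22 ± 0.45, adjusted p = 0.0274). Hfe2, hemojuvelin, a BMP co-receptor of striated muscle and liver, fell too (log2 fold change -2.40 ± 0.30, adjusted p = 0.0179). For each of these genes the highest mutant was below the lowest control.

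Other fallen genes encode enzymes and a translation factor. Eno3, the muscle isoform of the glycolytic enzyme enolase (chr11:70470704-70476015, plus strand), was at 28.1, 37.1 and 36.3 CPM in mutants 1, 2 and 3 and 98, 81.6 and 100.4 CPM in controls 1, 2 and 3. The highest mutant, mutant 2, was far below the lowest control, control 2 (log2 fold change -1.46 ± 0.13, adjusted p = 0.00532). Eef1a2, a translation elongation factor of muscle and neurons (chr2:180882358-180891720, minus strand), was at 0.500, 0.804 and 0.505 CPM in mutants and 4.75, 3.99 and 4.34 CPM in controls (log2 fold change -2.85 ± 0.26, adjusted p = 0.00532). Gamt, which makes creatine, and Fitm1, a protein of lipid droplet formation in muscle, fell by 1.05 and 1.15 on the log2 scale with adjusted p = 0.0186 and 0.027. Aldh1b1, a mitochondrial aldehyde dehydrogenase, was at 6.50, 6.53 and 6.01 CPM in mutants and 14.7, 15.5 and 18.4 CPM in controls (log2 fold change -1.35 ± 0.13, adjusted p = 0.00669). Fitm1 and Ckm share exon bases with a gene on the opposite strand, and since the strand setting of the counting is not given in the sources used here, their reads cannot be assigned with certainty.

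Several of the fallen genes belong to ion transport and calcium signalling. Fxyd1, phospholemman, a regulator of ion transport (chr7:31836699-31840674, minus strand), was at 17.2, 30.2 and 27.4 CPM in mutants 1, 2 and 3 and 60.9, 61.9 and 77.2 CPM in controls 1, 2 and 3. Mutant 1 was the lowest library (log2 fold change -1.42 ± 0.20, adjusted p = 0.0274). Camk2a, a calcium/calmodulin-dependent kinase, was at 31.6, 33.4 and 38.2 CPM in mutants and 71.4, 62.3 and 69.8 CPM in controls (log2 fold change -0.98 ± 0.11, adjusted p = 0.0113). Hrc, a calcium-binding protein of the sarcoplasmic reticulum (chr7:52590660-52594343, plus strand), was at 11.7, 16.9 and 12.7 CPM and 33, 29.7 and 33.5 CPM (log2 fold change -1.22 ± 0.15, adjusted p = 0.0179). Ppp1r1a, protein phosphatase inhibitor 1, was at 6.02, 7.34 and 7.04 CPM and 21, 13.8 and 17.8 CPM (log2 fold change -1.37 ± 0.17, adjusted p = 0.0179). Cacng6, a calcium channel gamma subunit, and Slc36a2, an amino acid transporter, were at no more than 0.452 CPM in any mutant and 0.775 CPM or more in every control, with adjusted p = 0.0475 and 0.027.

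The remaining falls were in signalling, matrix and transcription genes. Rgs5, a regulator of G protein signalling known as a marker of pericytes and mural cells (chr1:171585632-171625944, plus strand), was at 2.48, 3.49 and 3.19 CPM in mutants 1, 2 and 3 and 24.3, 38.2 and 48.4 CPM in controls 1, 2 and 3. It had the largest fall among called genes with a control mean over 5 CPM (12.1-fold, log2 fold change -3.60 ± 0.27, adjusted p = 0.00211), and the other mural genes tested, such as Acta2 and Cnn1, were not called. Penk, preproenkephalin, was at 0.190, 0.151 and 0.425 CPM in mutants and 2.33, 4.76 and 4.11 CPM in controls (log2 fold change -3.86 ± 0.44, adjusted p = 0.0133), with exons that overlap A830012C17Rik on the other strand. Oprl1, a receptor of the opioid family, was at 1.90, 2.04 and 2.23 CPM and 5.62, 5.10 and 6.30 CPM (log2 fold change -1.46 ± 0.18, adjusted p = 0.0179). Eln, elastin, the elastic fibre protein, was at 4.43, 8.14 and 5.95 CPM in mutants and 15.5, 34.3 and 30.7 CPM in controls, and control 1 was nearest to the mutants (log2 fold change -2.12 ± 0.32, adjusted p = 0.0386). Inpp5j, an inositol phosphatase, fell by 2.04 on the log2 scale, Pcp4l1, a relative of the calmodulin regulator PCP4, by 1.80 and Klhdc8b by 1.43, with adjusted p = 0.0113, 0.00396 and 0.0062. Prrx2, a homeobox factor of mesenchyme, was at 7.76, 6.16 and 8.11 CPM and 16, 12.8 and 15.5 CPM (log2 fold change -1.01 ± 0.15, adjusted p = 0.0424). Iigp1, an interferon-inducible GTPase, was at 0.714, 1.01 and 0.824 CPM in mutants and 3.07, 6.51 and 7.93 CPM in controls (log2 fold change -2.78 ± 0.37, adjusted p = 0.0205). The other fallen genes were Gsn (gelsolin, an actin-severing protein), Bcam and Flrt3 (cell surface adhesion proteins), Rtn4rl1, Doc2g, Crhr2 (a receptor for urocortins), Hif3a, and the little-studied C330024D21Rik and RP23-331P21.1.

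Among the 13 genes that rose was Nppb, the B-type natriuretic peptide, a hormone that heart muscle secretes (chr4:147359897-147361314, plus strand). It was at 145, 313 and 226 CPM in mutants 1, 2 and 3 and 69.2, 59.2 and 79.7 CPM in controls 1, 2 and 3. All mutants were above all controls, mutant 1 by the least (log2 fold change 1.72 ± 0.25, adjusted p = 0.0323). Nppa, the related atrial peptide, was at 578, 777 and 588 CPM in mutants and 328, 409 and 522 CPM in controls, with every mutant above every control, and did not pass (log2 fold change 0.63 ± 0.19, adjusted p = 0.264). Aldh1a1, a retinaldehyde dehydrogenase (chr19:20676451-20717952, plus strand), was at 22.3, 21.7 and 27.8 CPM in mutants and 7.32, 8.22 and 10.2 CPM in controls (log2 fold change 1.48 ± 0.16, adjusted p = 0.0113). Nefl, the neurofilament light chain, rose from 3.59 ± 0.145 (SD, n = 3) to 12.4 ± 2.63 CPM (SD, n = 3; log2 fold change 1.79 ± 0.18, adjusted p = 0.00669), and its exons overlap Nefm on the other strand. Phlda1 and Gyk, glycerol kinase, rose by less than 1 on the log2 scale, with mutants at 34.8, 36.1 and 34.6 CPM and 30.7, 28.4 and 31.4 CPM against controls at 19.9, 18.1 and 21.2 CPM and 16.8, 16.3 and 18.1 CPM.

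Chemokine and myeloid genes were a small group among the rises. Ccl2, the monocyte chemoattractant (chr11:81849073-81850955, plus strand), was at 9.40, 12.1 and 8.16 CPM in mutants 1, 2 and 3 and 1.55, 1.38 and 2.94 CPM in controls 1, 2 and 3. The 3 mutants were all above 8 CPM and the 3 controls under 3 CPM (log2 fold change 2.34 ± 0.30, adjusted p = 0.0179). Of the 9 chemokine genes tested, Ccl2 was called, 5 were higher at an unadjusted p under 0.05, where 6.21% of all genes were, and the list's median log2 fold change was 1.44. Cxcl10, an interferon-induced chemokine, was at 0.857, 1.23 and 0.850 CPM in mutants and 0.0448, 0.222 and 0.175 CPM in controls (log2 fold change 2.76 ± 0.51, adjusted p = 0.0865), and Ccl7, a close relative of Ccl2, at 2.50, 3.59 and 2.60 CPM and 0.291, 0.886 and 1.02 CPM (log2 fold change 2.00 ± 0.42, adjusted p = 0.115); both were named after their values were seen. Cxcl12, which attracts endothelial and progenitor cells, had the opposite sign (log2 fold change -0.72 ± 0.20, adjusted p = 0.231). Gp49a, an inhibitory receptor of myeloid cells, rose (log2 fold change 2.48 ± 0.32, adjusted p = 0.0186) and so did Cd300d, another myeloid receptor (log2 fold change 3.30 ± 0.48, adjusted p = 0.0323), both from under 1 CPM in controls, and Gp49a shares exon bases with a second entry of the same name. The summed level of 5 macrophage markers (Csf1r, C1qa, Adgre1, Fcgr1 and Cx3cr1) was higher in mutants, and none of the 5 was called. It was 3.70 to 6.96 FPKM in mutants and 2.60 to 3.42 FPKM in controls. Of the 5, 1 had at least 1 FPKM in every library. The lowest, Fcgr1, had a mean of 0.402 FPKM over the libraries. The part of macrophages in the chemokine result was not tested. Of 22 macrophage genes tested, 8 were higher and 2 lower at an unadjusted p under 0.05, where 6.21% of all genes were higher and 5.72% lower, and 1, Gp49a, was called. DESeq2 called 1 higher and 1 lower, where it called 1.39% of all genes in either direction. Without mutant 1 edgeR called 2 higher and 2 lower, where 1.8% of all genes were called higher and 3.32% lower. Lyz2, lysozyme, was at 27, 22.8 and 21.4 CPM in mutants and 31.9, 28.8 and 32.2 CPM in controls, so that every mutant was below every control, without a call (log2 fold change -0.38 ± 0.12, adjusted p = 0.272).

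**Figure D2:**
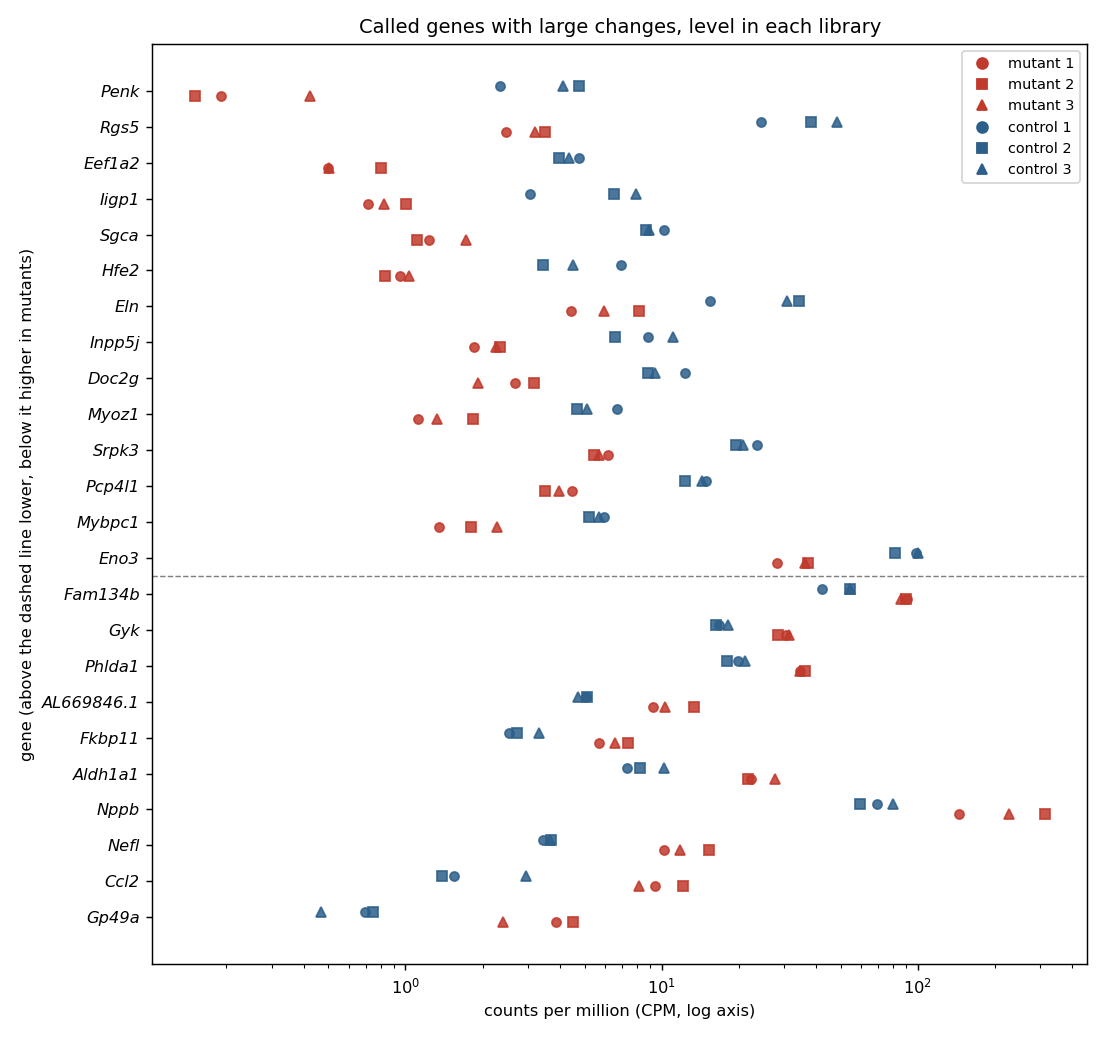
CPM (log axis) in each of the 6 libraries for the more abundant called genes (average log2 CPM 1 or higher), with 14 of the 15 largest falls above the dashed line and the 10 largest rises below it, mutants in red and controls in blue. For every gene shown the 3 mutants and the 3 controls do not overlap, from Rgs5 at 2.48 to 3.49 against 24.3 to 48.4 CPM to Nppb at 145 to 313 against 59.2 to 79.7 CPM.

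All 50 called genes had mutant and control libraries that did not overlap. This held for 17.1% of all genes tested, 9.13% with mutants higher and 7.97% with mutants lower. A call with 3 libraries a group favours such genes, so the separation of the 50 follows largely from how they were chosen. Of the 50, 41 changed by at least 2-fold, 48 were protein-coding, and 10 shared exon bases with another gene. The median average level of the called genes was 3.32 on the log2 CPM scale, beside 3.43 over all genes tested.

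For 10 called genes, most of them muscle isoforms, a closely related gene or partner subunit was set beside them per gene length, in FPKM, in pairs made after the values were seen. The relative was at the higher level in 9 of the 10 pairs in controls and in all 10 in mutants. Tnnt1 was at 21.3 ± 4.48 FPKM in mutants and 40.9 ± 3.05 in controls, where ± is the SD of 3 libraries as in the pairs that follow, and Tnnt2, cardiac troponin T, at 1682 ± 275 FPKM in mutants and 1302 ± 205 in controls, with a log2 fold change for Tnnt2 of 0.24 ± 0.16, adjusted p = 0.6. The called gene was the minor partner in this pair. Eno3 was at 21 ± 4.62 FPKM in mutants and 53 ± 5.65 in controls, and Eno1 at 117 ± 9.59 FPKM in mutants and 87.7 ± 22.9 in controls (log2 fold change 0.30 ± 0.19, adjusted p = 0.578), so that Eno3 made up 37.7% of the summed enolase level in controls and 15.2% in mutants. Camk2a made up 44.5% of its sum with Camk2d in controls and 24.4% in mutants, Srpk3 37.1% and 13% of its sum with Srpk1, and Sgca 53% and 14% of its sum with Sgcb, a subunit of the same complex. Eef1a2 was at most 0.156% of its sum with Eef1a1. None of the 10 relatives was called by edgeR, 1 was by DESeq2, and 3 had an unadjusted p under 0.05. Eef1a1 and Eno1 belong to families with many near-identical copies, which counting can split, so their levels are uncertain.

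To show the sequence in front of the called genes and of listed genes, the 250 bases before the RefSeq start of each gene were read. The build was GRCm38.p6, another than the mm9 of the counts. Promoters were found for 25 of the 37 fallen genes, 50 of the 65 hypoxia genes and 23 of the 38 erythroid genes listed. The letters CAGCTG, an E-box of the kind bound by myogenic factors, stood in 6 of the 25 fallen genes, 24%, beside 14.7% of 27025 genes with a promoter entry. The letters ACGTG, the core of the hypoxia response element, stood in 29 of the 50 hypoxia genes, 58%, and in 2 of the 25 fallen genes, 8%, beside 18.5% of all genes. The letters AGATAA, bound by GATA factors, stood in 9 of the 23 erythroid genes, 39.1%, and in 1 of the 25 fallen genes, 4%, beside 11.4% of all. Both strands were searched. The hypoxia and erythroid lists hold genes grouped by process, and 0 of them were called. Their motif shares therefore describe the lists and not a change in these libraries. Of the 13 risen genes 4 had a promoter entry, of which 2 held CAGCTG, 2 AGATAA and 1 ACGTG. The MEF2 motif was in 2 of the 25 fallen genes, beside 3.42% of all genes. Below are, for each group, the promoters with the motif whose gene had the smallest p, in capitals the motif, on the strand of the gene. They are Srpk3 (chrX:73774155-73774404, plus strand) and Hrc (chr7:45335019-45335268, plus strand) for the fallen genes, Egln3 (chr12:54203875-54204124, minus strand) for the hypoxia list and Tmcc2 (chr1:132367949-132368198, minus strand), a coiled-coil membrane protein on the erythroid list.
Srpk3 promoter: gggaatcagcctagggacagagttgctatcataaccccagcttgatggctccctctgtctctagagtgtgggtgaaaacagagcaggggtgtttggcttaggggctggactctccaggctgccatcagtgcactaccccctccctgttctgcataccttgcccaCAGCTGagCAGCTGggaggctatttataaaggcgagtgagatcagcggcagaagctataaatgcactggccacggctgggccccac
Hrc promoter: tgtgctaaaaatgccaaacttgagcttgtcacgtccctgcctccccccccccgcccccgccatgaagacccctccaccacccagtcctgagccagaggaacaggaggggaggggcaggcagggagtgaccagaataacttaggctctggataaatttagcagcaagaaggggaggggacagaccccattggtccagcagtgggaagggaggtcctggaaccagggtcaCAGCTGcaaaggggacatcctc
Egln3 promoter: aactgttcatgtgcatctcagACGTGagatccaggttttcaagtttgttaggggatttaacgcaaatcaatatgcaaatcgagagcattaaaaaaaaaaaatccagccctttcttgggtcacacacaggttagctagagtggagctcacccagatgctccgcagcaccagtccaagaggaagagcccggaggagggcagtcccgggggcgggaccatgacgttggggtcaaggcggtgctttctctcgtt
Tmcc2 promoter: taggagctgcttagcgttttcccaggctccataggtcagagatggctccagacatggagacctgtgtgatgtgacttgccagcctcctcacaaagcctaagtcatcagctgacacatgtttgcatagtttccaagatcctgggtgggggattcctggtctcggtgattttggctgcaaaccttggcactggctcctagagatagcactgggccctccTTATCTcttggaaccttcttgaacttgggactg
The Srpk3 promoter holds CAGCTG at 2 places, which begin 86 and 78 bases before the start. In the Tmcc2 promoter the motif is on the opposite strand and reads TTATCT. A match describes these letters in this window and is not a measured binding site.

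The study named 12 genes in this comparison, of ion transport, hypoxia and cell cycle control. It chose them on these same libraries, so their direction is not independent evidence. Of the 12, 4 were called, all lower, among them Fxyd1, Camk2a and Hif3a, and 7 were lower at an unadjusted p under 0.05, where 5.72% of all genes were. They fell into separate patterns across libraries. Hif3a, an alpha subunit of the hypoxia-inducible factors that can restrain the others (chr7:17616856-17647776, minus strand), was at 65.2, 82.4 and 69.7 CPM in mutants 1, 2 and 3 and 158, 144 and 139.7 CPM in controls 1, 2 and 3. All mutants were low together (log2 fold change -1.02 ± 0.11, adjusted p = 0.0113).

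The other pattern was that of the hemoglobins. Gpx1, glutathione peroxidase, was at 863, 213 and 339 CPM in mutants 1, 2 and 3 and 738, 1083 and 709 CPM in controls 1, 2 and 3. Mutant 1 was between controls 1 and 2, and mutants 2 and 3 were far below. Abcb10, a mitochondrial transporter needed for heme synthesis, was at 183, 46.9 and 82.2 CPM in mutants and 191, 233 and 142 CPM in controls. E2f2, a transcription factor of the cell cycle, was at 74.5, 14 and 22.9 CPM and 65.5, 78.4 and 55.8 CPM, and Rbm38, an RNA-binding target of p53, at 88.8, 41.3 and 55.1 CPM and 79.7, 117 and 90.0 CPM. In all 4 genes mutant 1 stood within the range of the controls, as it did for Hbb-y. Their log2 fold changes were -0.84, -0.86, -0.84 and -0.63, with adjusted p = 0.497, 0.468, 0.558 and 0.389. Stradb, a pseudokinase that activates LKB1, had mutant 1 at 23.6 CPM, just under the lowest control at 23.8 CPM, and mutants 2 and 3 at 13 and 13.9 CPM (log2 fold change -0.65 ± 0.23, adjusted p = 0.331). Without mutant 1 all 5 were called lower, with log2 fold changes of -1.61, -1.55, -1.86, -0.99 and -0.98 for Gpx1, Abcb10, E2f2, Rbm38 and Stradb. With the mean erythroid level of each library as a covariate none of the 5 was called, at -0.046, -0.061, -0.0031, -0.13 and -0.23. Fxyd1, Camk2a and Hif3a stayed called at -1.88, -1.06 and -1.17. The covariate, in log2 CPM, was 6.43, 4.13 and 5.05 in mutants 1, 2 and 3. In controls 1, 2 and 3 it was 6.33, 6.72 and 6.00. Mutants 2 and 3 were below every control, so fits with it cannot fully tell red cell content and genotype apart. Hif1a was at 269, 245 and 302 CPM in mutants and 242, 218 and 269 CPM in controls, and Commd1, which limits its activity, at 23.9, 18 and 19.2 CPM and 21, 18.4 and 22.5 CPM, and both groups overlapped.

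**Figure D3:**
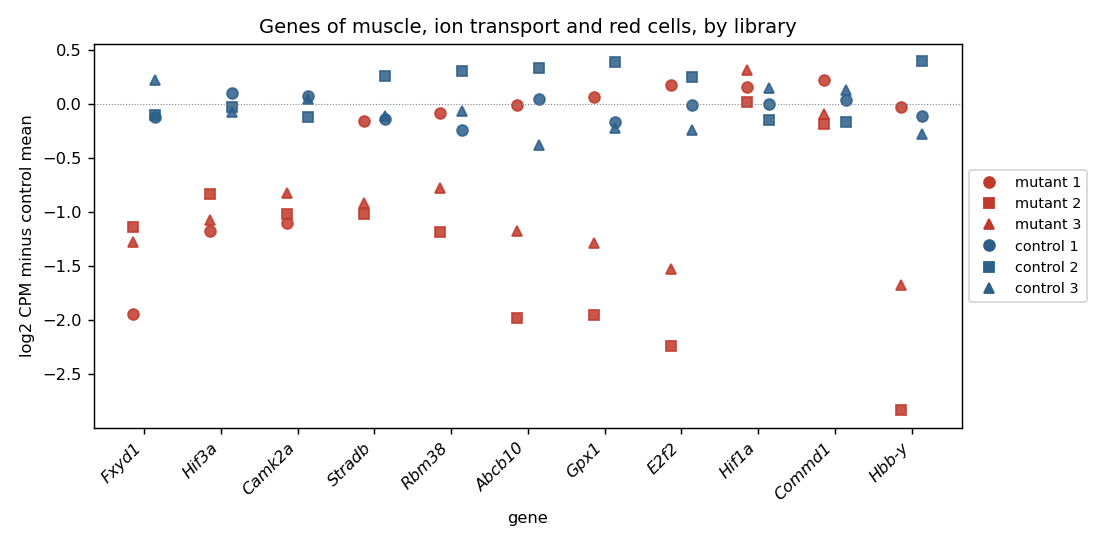
log2 CPM minus the control mean in each library for 10 of the 12 genes the study named and for Hbb-y, mutants in red and controls in blue. For Fxyd1, Hif3a and Camk2a all 3 mutants lie below the controls, whereas for Rbm38, Abcb10, Gpx1, E2f2 and Hbb-y mutant 1 lies among the controls and mutants 2 and 3 lie below.

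Genes of the hypoxia response were higher in the mutants without a call. Of 65 such genes tested, 57 had a positive log2 fold change, as did 50.7% of all genes, 39 were higher at an unadjusted p under 0.05, where 6.21% of all genes were, and 0 were called, with a median of 0.53 beside a median near 0 over all genes. The groups did not overlap, mutants higher, for 20 of the 65, where 9.13% of all genes did so. Slc2a3, the glucose transporter GLUT3, was at 121, 191 and 91.1 CPM in mutants 1, 2 and 3 and 54.7, 58 and 73.2 CPM in controls 1, 2 and 3, with all mutants above all controls (log2 fold change 1.12 ± 0.25, adjusted p = 0.133). Egln3, the oxygen sensor whose promoter is shown above and itself a target of HIF, was at 4.93, 12.3 and 6.43 CPM and 2.17, 2.19 and 3.85 CPM (log2 fold change 1.53 ± 0.37, adjusted p = 0.168). Nrn1, neuritin, was at 7.78, 20.6 and 8.77 CPM and 2.26, 2.60 and 4.58 CPM (log2 fold change 1.98 ± 0.41, adjusted p = 0.114). In each of these 3 genes mutant 2, the library with the fewest hemoglobin counts, was the highest of the 6.

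The abundant glycolytic enzymes of the list differed by less. Ldha, lactate dehydrogenase A, was at 941, 1341 and 1259.8 CPM in mutants 1, 2 and 3 and 764, 702 and 1045 CPM in controls 1, 2 and 3. Mutant 1 was inside the range of the controls (log2 fold change 0.50 ± 0.19, adjusted p = 0.364). Aldoa was at 758, 1137 and 896 CPM in mutants and 593, 621 and 828 CPM in controls (log2 fold change 0.45 ± 0.19, adjusted p = 0.389), and Pgam1 at 715, 841 and 768 CPM and 466, 495 and 646 CPM (log2 fold change 0.53 ± 0.15, adjusted p = 0.239). As a median over the list, the distance from the control mean was 0.10, 0.95 and 0.44 in mutants 1, 2 and 3 and -0.14, -0.042 and 0.18 in controls 1, 2 and 3, so mutant 1 was within the controls. Without mutant 1, 33 of the 65 were called higher and 1 lower, where 1.80% and 3.32% of all genes were. With the erythroid covariate 0 were called and the median was 0.09. Among 11 genes of the HIF pathway itself, Hif3a was called; Egln1 and Egln3, oxygen-sensing prolyl hydroxylases that HIF induces, were higher at an unadjusted p under 0.05, and Hif1a, Epas1, Arnt, Vhl and the others were not.

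Of 17 immediate early genes 6 were higher and 1 lower at an unadjusted p under 0.05, where 6.21% of all genes were higher and 5.72% lower, and 0 were called. Egr1, a transcription factor induced by many stimuli, was at 24.6, 41.2 and 34.4 CPM in mutants 1, 2 and 3 and 16.9, 22.7 and 25.3 CPM in controls 1, 2 and 3 (log2 fold change 0.63 ± 0.21, adjusted p = 0.302). The list's median distance from the control mean was 0.06, 0.42 and 0.55 in mutants 1, 2 and 3. Of 16 genes of the ATF4 stress response, 5 were higher at an unadjusted p under 0.05, beside the same 6.21%, and 0 were called. Their median distance was 0.26, 0.74 and 0.17 in mutants 1, 2 and 3 and 0.038, 0.092 and -0.089 in controls 1, 2 and 3, so that here mutant 1 was above the controls. The cell cycle lists had medians below 0. All 30 G2/M genes had a negative log2 fold change, where 50.7% of all genes had a positive one. Their median was -0.19, and none had an unadjusted p under 0.05. Mki67, a proliferation marker, was at 1233, 410.2 and 499.7 CPM in mutants 1, 2 and 3 and 1216, 1368 and 868 CPM in controls 1, 2 and 3. Mutants 2 and 3 were below the controls and mutant 1 was among them, as for the hemoglobins. Of 47 G1/S and replication genes, 36 were lower, 4 of them at an unadjusted p under 0.05 and 2 others higher, beside 5.72% and 6.21% of all genes, and 0 were called. The part of red cells, which divide in the blood at this stage, in these medians was not tested; with the erythroid covariate the median was 0.056 for G2/M and 0.10 for G1/S.

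In the lists of ion transport, calcium handling and the sarcomere edgeR called genes lower and none higher, 0.217% of all genes being called lower and 0.0763% higher. DESeq2 called 3 higher and 7 lower of the ion channel and pump genes and 1 and 5 of the calcium handling genes. Of the sarcomere genes it called 3 higher and 4 lower, beside 1.39% of all genes in either direction. Without mutant 1 edgeR called 5 ion channel and pump genes higher and 7 lower. In that fit 2 calcium handling genes were higher and 4 lower, and 2 sarcomere genes higher and 2 lower. Of all genes, 1.8% were called higher and 3.32% lower without mutant 1. Of 56 ion channel and pump genes, 2 were called, both lower, Fxyd1 among them, 9 were lower and 8 higher at an unadjusted p under 0.05, beside 5.72% and 6.21% of all genes, and the median log2 fold change was -0.044. Gja1, connexin 43, was at 157, 249 and 179 CPM in mutants and 89.7, 108 and 128 CPM in controls (log2 fold change 0.84 ± 0.19, adjusted p = 0.137). Cacna1h, a T-type calcium channel, was at 25.5, 41.8 and 32.1 CPM and 69, 55.9 and 61.2 CPM (log2 fold change -0.91 ± 0.17, adjusted p = 0.0929). Both had groups that did not overlap, in opposite directions, and were named after their values were seen. Of 34 calcium handling genes, 3 were called lower (Camk2a, Hrc and Ppp1r1a), 6 were lower and 6 higher at an unadjusted p under 0.05, against the same shares. Atp2a2, the sarcoplasmic reticulum calcium pump SERCA2, was at 1898, 2014 and 1896 CPM in mutants 1, 2 and 3 and 1364, 1248 and 1553 CPM in controls 1, 2 and 3. Every mutant was above every control, without a call (log2 fold change 0.48 ± 0.13, adjusted p = 0.228). Ryr2, the calcium release channel, was at 593, 802 and 758 CPM and 603, 518 and 504 CPM (log2 fold change 0.41 ± 0.14, adjusted p = 0.336), and mutant 1 was within the controls. Of 47 sarcomere genes, 2 were called lower (Sgca and Tnnt1), 8 were lower and 7 higher at an unadjusted p under 0.05, and the median was 0.087. Des, desmin, was at 133, 140.2 and 155 CPM in mutants and 211, 169.6 and 241 CPM in controls (log2 fold change -0.54 ± 0.14, adjusted p = 0.206). Abundant sarcomere genes overlapped between the groups. Actc1, cardiac actin, had a log2 fold change of 0.22 ± 0.20, adjusted p = 0.719, and Ttn, titin, of 0.14 ± 0.23, adjusted p = 0.856.

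Over all genes 0.293% were called, and 6.21% were higher and 5.72% lower at an unadjusted p under 0.05, beside which the counts of the next lists stand. Of 28 cardiac transcription factors, Prrx2 was called and 5 were lower and 2 higher at an unadjusted p under 0.05. Gata4 was at 136, 135 and 149 CPM in mutants and 128, 134 and 149.7 CPM in controls, and Tbx20 at 247, 253 and 297 CPM and 287, 263 and 342 CPM, and both overlapped. Of 15 natriuretic and trabecular genes Nppb alone was called. Smyd1, a muscle histone methyltransferase on that list, was at 289, 233 and 276 CPM in mutants and 438, 268 and 342 CPM in controls (log2 fold change -0.39 ± 0.18, adjusted p = 0.429), and mutants 1 and 3 were inside the range of the controls. Of 43 respiratory chain genes, 40 had a positive log2 fold change, as did 50.7% of all genes, with a median of 0.12, 3 were higher and 2 lower at an unadjusted p under 0.05, and 0 were called. Of 27 fatty acid oxidation genes, 8 were higher at an unadjusted p under 0.05 and 0 were called (median 0.22). Of 21 p53 and apoptosis genes, 0 were called, 4 were higher and 3 lower at an unadjusted p under 0.05.

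The lists named for cell types other than cardiomyocytes are read against the same shares of all genes. These are 0.293% called, 6.21% higher and 5.72% lower at an unadjusted p under 0.05. Whole hearts do not show which cells gave the reads of a list, and cardiomyocytes may be among them. Of 15 epicardial genes, Aldh1a1 was called, 4 were higher at an unadjusted p under 0.05 and 14 had a positive log2 fold change (50.7% of all genes), with a median of 0.24. Of 22 endothelial and endocardial genes 0 were called and 2 were higher at an unadjusted p under 0.05 (median 0.13), and of 20 valve mesenchyme genes 0 were called (median -0.17, 5 lower and 1 higher at an unadjusted p under 0.05). Mutant 1 stood lowest of the 6 libraries for the valve list, -0.55 from the control mean. Of 14 mural and smooth muscle genes, Rgs5 was called, 2 were higher and 3 lower at an unadjusted p under 0.05, and Acta2, smooth muscle actin, was at 1690.1, 1464 and 1937 CPM in mutants and 1204, 813 and 1607 CPM in controls (log2 fold change 0.49 ± 0.23, adjusted p = 0.455). Of 13 neural and glial genes, Nefl rose and Penk fell, and Tubb3, a neuronal tubulin, was at 3.02, 5.75 and 3.35 CPM in mutants and 5.26, 2.46 and 5.71 CPM in controls.

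**Figure D4:**
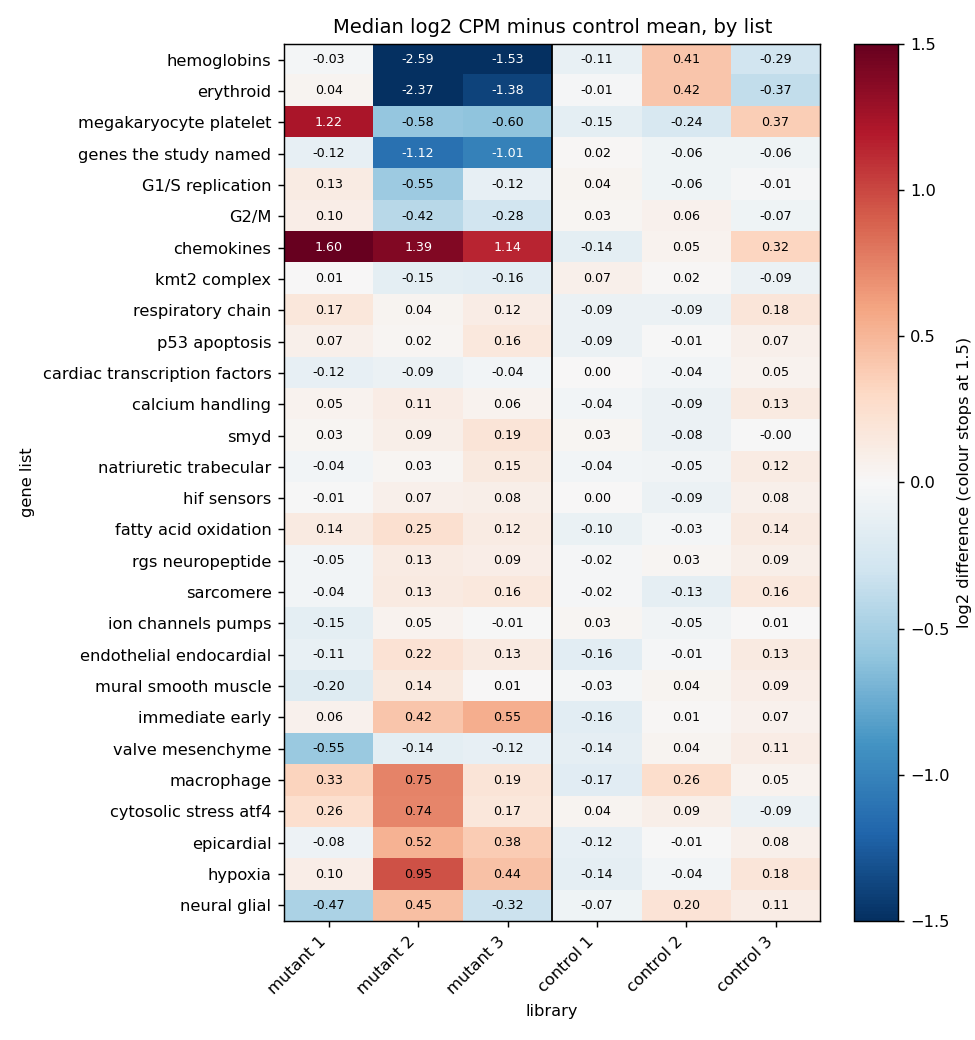
Median log2 CPM minus the control mean for each gene list (rows) in each of the 6 libraries (columns), red above and blue below the control mean, with colours ending at 1.5. The hemoglobin and erythroid lists are low in mutants 2 and 3 and near 0 in mutant 1, the hypoxia list is at 0.95 in mutant 2, and the chemokine list is above 1 in all 3 mutants.

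Leaving out 1 library changed the number of calls more than any other choice. Without mutant 1 there were 896 called genes, 5.12% of 17487 tested, 315 higher and 581 lower, and all 50 genes called with 6 libraries were among them. Without mutants 2 and 3 in turn there were 52 and 17, and without controls 1, 2 and 3 in turn 14, 17 and 4. Of the 50, 39 and 15 stayed called without mutants 2 and 3, and 12, 16 and 4 without controls 1, 2 and 3. Srpk3, Rgs5 and Sgca were the 3 genes that passed in each of these fits and in each of the 11 other settings tried. Among the 581 lower genes were 33 of 36 erythroid and 7 of 7 hemoglobin genes. With the erythroid covariate 116 genes were called, 0.681% of 17045, 18 higher (0.106%) and 98 lower (0.575%), among them 46 of the 50; Ckm, Cacng6, Prrx2 and Fkbp11 no longer passed, with log2 fold changes of -2.81, -2.83, -0.93 and 0.99 against -3.22, -3.01, -1.01 and 1.20 without the covariate. Cacna1h, not called without it, was called lower, at -1.27.

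DESeq2, an alternative to edgeR's test, called 360 genes, 1.39% of 25820 it tested, and all 50 were among them. Of the lists in which edgeR called 0 genes, it called 11 of 65 hypoxia genes, all higher, 1 of 17 immediate early, 1 of 22 endothelial, 1 of 27 fatty acid oxidation and 1 of 21 p53 genes higher, and 2 of 43 respiratory chain genes lower. It called 0 of the KMT2 complex, hemoglobin, erythroid, ATF4, G1/S, G2/M, valve and platelet genes. Of the 9 chemokine genes it called 4 higher and 1 lower.

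The sexes of the embryos were not matched. From 4 Y-linked genes, mutant 3 and controls 2 and 3 were male and the other libraries female. With sex as a covariate 17 genes were called, 0.0997% of those tested, all of them among the 50, including Srpk3, Rgs5, Sgca, Eno3 and Penk, and Camk2a had a log2 fold change of -0.96 and adjusted p = 0.0512, against -0.98 without the covariate.

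Mesp1Cre, active in early mesoderm before the heart forms, deletes Kmt2d in the progenitors of most cardiac cells, and gave 4 mutant and 4 control libraries that share no sample with those above. They are labelled E9, their total counts were 21727258 to 28790705, and their column names carry another code, whose meaning is not given. The driver, the stage and these differences cannot be told apart in this comparison. In the Mesp1Cre fit 980 genes were called higher and 841 lower, 6.17% and 5.29% of 15883. Of the 50 genes called with Tnnt2::Cre, 42 were tested there. All 31 fallen genes among them had a negative log2 fold change with Mesp1Cre too, where 50.2% of all genes did, and 14 were called lower. Of 11 risen genes, 7 had a positive log2 fold change and 3 were called higher. Srpk3 had a log2 fold change of -1.69 ± 0.18, adjusted p = 0.000139 with Mesp1Cre and Ppp1r1a of -2.03 ± 0.17, adjusted p = 1.88e-05. With Tnnt2::Cre they were at -1.88 and -1.37. Pcp4l1, Klhdc8b, Myoz1, Eef1a2, Tnnt1 and Camk2a were also called lower with both drivers. Hif3a, at -0.27 ± 0.17, adjusted p = 0.343 with Mesp1Cre, was not.

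The difference between the changes of the drivers was tested for all 50 as an interaction term in 1 edgeR fit over the 14 libraries. It passed for 5 of them, where 1.06% of 17658 genes did. The 50 were chosen for their change in the same Tnnt2::Cre libraries, and that choice by itself raises their share. Eno3 fell with Tnnt2::Cre and was at -0.15 ± 0.079, adjusted p = 0.263 with Mesp1Cre (difference -1.33, adjusted p = 0.00135). Rgs5 was at -0.40 ± 0.42, adjusted p = 0.59 with Mesp1Cre (difference -3.20, adjusted p = 0.0292). Nppb had the opposite sign with Mesp1Cre, -0.92 ± 0.30, adjusted p = 0.0621 (difference 2.63, adjusted p = 0.0159). Gyk and Eln were the other 2 genes, with adjusted p = 0.0255 and 0.0378.

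**Figure D5:**
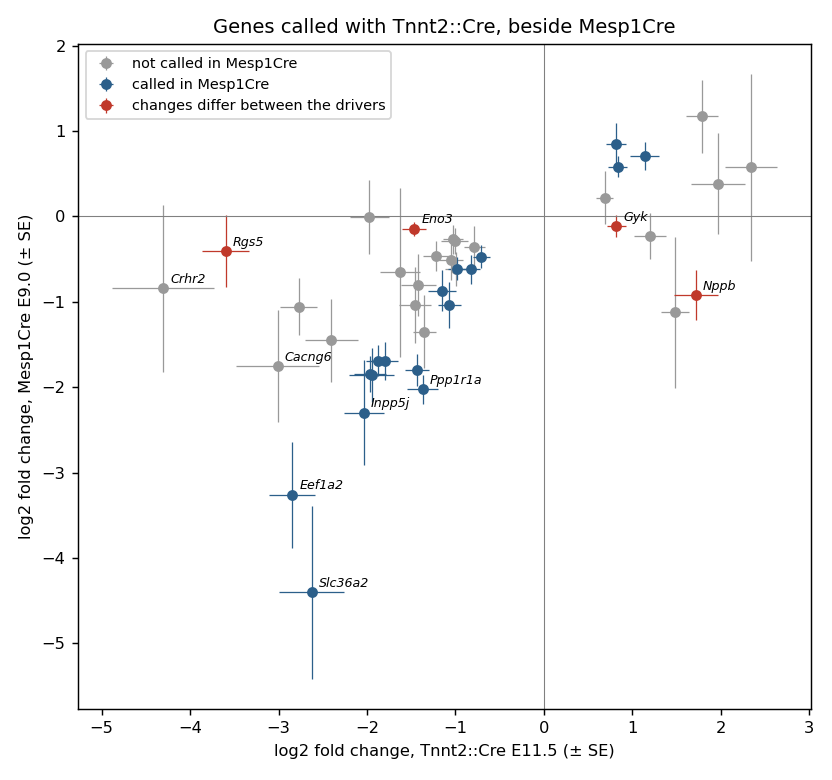
log2 fold change (± SE) of the 42 genes called with Tnnt2::Cre and tested with Mesp1Cre, with Tnnt2::Cre at E11.5 on the x axis and Mesp1Cre at E9 on the y axis. All 31 genes that fell with Tnnt2::Cre lie below 0 on the y axis, and the genes in red (Rgs5, Nppb, Eno3 and Gyk) are those whose changes differed in the interaction test.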

How the data were processed

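RNA of whole E11.5 hearts was amplified by single primer isothermal amplification. The submitters' processing notes name TopHat2 2.0.8b. Reads were aligned to mm9, and the authors deposited for each of 33495 genes a count per library, not normalized, and an FPKM, which the authors computed with USeq from reads, gene length and library total. The strand setting and whether libraries pooled hearts are not given in the sources used here. The labels and the study's methods differ on the library kit and sequencer. Of the columns of per-sample values, 40 were used and 20, of variance-stabilised values, were not. Samples were grouped by title.

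The quasi-likelihood F test of edgeR 4.0.16 (R 4.3.3) was run on the counts after filterByExpr and TMM, without covariates, and Benjamini-Hochberg adjusted p-values over all tested genes under 0.05 were taken as calls. The SE is the size of the log2 fold change divided by the square root of F. List values used log2 CPM with a prior count of 2. The hemoglobin share was compared by an exact permutation test over samples. Fits were tested on simulated data. Alternatives included DESeq2 1.42.0 and leaving out each library. Exon overlaps came from GENCODE vM1. The largest gene, a mitochondrial rRNA, took 16.4 to 20.9% of counts. Depths were alike, and 3 libraries a group limit the precision. The members, gene lists and tests were chosen with earlier results of these data known. Genes named are Kmt2d, any called gene, and for each list its called and most abundant members (for hypoxia and erythroid genes also those with the smallest p); other names are said to be chosen after their values were seen. A few genes that this rule would name are not reported here.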

Additional observations from a re-analysis of the deposited data

Results flagged for a closer look

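Groups of 3 libraries are too small for the test of single outlying libraries, so the results below come from the comparison of the change with Tnnt2::Cre at E11.5 with the change with Mesp1Cre at E9. It was tested as an interaction over 14 libraries, and driver, stage and total counts cannot be told apart in it. The genes below were taken from those already called in the same Tnnt2::Cre libraries, which favours a difference.

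Rgs5, known as a marker of mural cells, differed by -3.20 on the log2 scale (adjusted p = 0.0292). It fell by 3.60 with Tnnt2::Cre and was at -0.40 with Mesp1Cre. Its Mesp1Cre mean was 24.3 ± 18.3 CPM in mutants and 32.1 ± 13.9 CPM in controls (SD, n = 4). Eln, elastin, differed by -3.10 (adjusted p = 0.0378) and did not pass the filter on low counts in the Mesp1Cre fit alone. Eno3, muscle enolase, differed by -1.33 (adjusted p = 0.00135), with -1.46 for Tnnt2::Cre and -0.15 for Mesp1Cre. Nppb differed by 2.63 (adjusted p = 0.0159), higher in mutants with Tnnt2::Cre and with a log2 fold change of -0.92 with Mesp1Cre. Gyk, glycerol kinase, differed by 0.93 (adjusted p = 0.0255), with 0.82 and -0.11. What sets these genes apart between the drivers was not tested.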

How the results depend on the processing

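The 50 calls (13 higher, 37 lower) became 360 (165 and 195) with DESeq2, 120 (47 and 73) over all genes with at least 1 count, 82 (34 and 48) in a fit of all 20 libraries, which shared 33 genes with the 50, 116 (18 and 98) with the erythroid covariate, 32 (11 and 21) without TMM scaling and 17 (2 and 15) with the sex covariate. With 1 library left out they ranged from 4 to 896, from 0 to 315 higher and from 3 to 581 lower. Median log2 changes with the erythroid covariate were -0.10 for hemoglobins, 0.090 for hypoxia genes and -0.14 for ion channels and pumps, which were at 0.074 without TMM. The covariate ranked the libraries in the same order as the hemoglobin share, so the hemoglobin median near 0 follows from the adjustment. The genes that differed from Mesp1Cre numbered 187 and became 559 in the fit of all 20 libraries and 30 to 375 with 1 library left out (74 and 30 without controls 1 and 2, 375 and 34 without mutants 2 and 3), and of the 50 called genes 5 differed, 9 in the fit of all 20 libraries and 1 to 5 with 1 left out, the fewest without control 2. Ttn, not called, changed sign to -0.12 with the erythroid covariate. The cause was not tested.

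The hemoglobin share was lower in mutants by 5.70 percentage points, by 7.27 with mitochondrially encoded genes of chromosome M left out, a choice made after seeing the data, and by 3.70 to 8.56 with 1 library left out. None of the 50 genes changed sign under any alternative.

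Mutants and controls carry the same replicate numbers. Same-numbered libraries had correlations of 0.032, -0.036 and 0.060 between their deviations from the group means, so the numbers are not taken as pairs. With the replicate number as a block 28 genes were called (5 higher, 23 lower), 23 of them among the 50.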

Other observations

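Some of the largest changes without mutant 1 concerned genes not described above. H2-K1, a class I antigen-presenting molecule, was at 12.8, 48.6 and 22.6 CPM in mutants 1, 2 and 3 and 4.77, 7.01 and 11 CPM in controls 1, 2 and 3. All mutants were above all controls, mutant 1 by the least, and the change passed without mutant 1, at 2.24 with an adjusted p of 0.00892, and not with it (log2 fold change 1.89 ± 0.47, adjusted p = 0.191). H2-Ab1, a class II molecule, was at 7.62, 35 and 17.4 CPM in mutants and 2.58, 6.34 and 5.51 CPM in controls, at 2.46 with an adjusted p of 0.00719 without mutant 1. Both genes were higher with Mesp1Cre as well, where H2-K1 was at 2.76 ± 0.42, adjusted p = 0.0014 and H2-Ab1 at 3.75 ± 0.62, adjusted p = 0.00233. Stc2, a secreted glycoprotein on the hypoxia list, was at 6.07, 22 and 9.89 CPM in mutants and 2.84, 3.93 and 5.04 CPM in controls, and with Mesp1Cre its log2 fold change was 3.18 ± 0.26, adjusted p = 1.77e-05. Fbln5, a protein of elastic fibres as is Eln, was at 0.714, 2.24 and 1.17 CPM in mutants and 5.02, 20.6 and 17.6 CPM in controls (log2 fold change -3.39 ± 0.57, adjusted p = 0.0607), and control 1 was the lowest control for both genes.

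Myh11, smooth muscle myosin, was at 6.45, 29.1 and 14.3 CPM in mutants and 6.07, 6.90 and 3.50 CPM in controls, with mutant 1 inside the range of the controls. AC141641.1, described in the table as a pseudogene, was at 41.3, 1.58 and 1.28 CPM in mutants 1, 2 and 3 and 1.97, 40.7 and 42.4 CPM in controls 1, 2 and 3, which splits the libraries across the genotypes.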
